A study of Mus musculus with 5 samples.

Results

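Transcripts of 9 genes that act next to the T cell receptor were described in single T cells from the brains of 5 stressed mice. The rule lists them by name and uses no measured value, but the list was chosen with earlier results of these data known. The genes are Lck, Fyn, Zap70, Lat, Trat1, Rasgrp1, Cd2, Cd5 and Ptprc. All 9 were found among the 15952 genes that had a transcript count in the kept cells, of 52542 gene rows outside the spike-ins. They gave 6986 of 3037170 unique molecular identifiers (UMIs, 1 per captured transcript) in 1482 cells. In edgeR's test 0 of 9 genes passed between TAT-CRE and PBS mice, 0 of the 7 that could be tested between cells with a Cxcr6 and cells with a Klf2 transcript, and 0 of the 6 that could be tested between Cd8 and Cd4 cells. Zap70 was lower in each of the 3 TAT-CRE mice than in both PBS mice, as were 7.22% of all genes tested.

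When a T cell receptor meets its antigen, the kinase Lck phosphorylates the CD3 and zeta chains, and the kinase Zap70 docks on them and is switched on. Zap70 then phosphorylates the adaptor Lat, which assembles the enzymes that release calcium and diacylglycerol, and diacylglycerol recruits Rasgrp1, an exchange factor that loads Ras with GTP. Fyn is another kinase of the Src family that can act at the same step as Lck, and Trat1 is a small membrane adaptor that associates with the receptor. Cd2 is an adhesion and costimulatory receptor that binds Cd48 in mice, Cd5 is a surface glycoprotein that dampens receptor signals, and Ptprc encodes the phosphatase CD45, which removes an inhibitory phosphate from Lck. All of this is regulated mostly on the protein, which transcript counts do not show.

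The mice were of the strain Grl1loxP/loxP, in which loxP sites flank the glucocorticoid receptor gene, so every group carried the floxed alleles. Mice of the TAT-CRE group (207, 208 and 215, aged 18, 18 and 19 weeks) had TAT-CRE, a cell-permeable Cre recombinase, injected into the brain ventricles, and mice of the PBS group (216 and 218, aged 19 and 16 weeks) had PBS injected there. All 5 were exposed to foot-shock stress, and T cells (CD45+CD11b-TCRβ+) were sorted 1 per well on day 14 after it from brain parenchyma without choroid plexus. Per the series' design the aim was a knockdown of the receptor at the choroid plexus; the labels do not say which cells recombined, and whether a library is more than 1 animal is not stated. Each mouse had its own plate and amplification batch, so plate, amplification and mouse cannot be told apart.

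A well was kept if its label gave 1 cell and if it had 400 or more UMIs without counting spike-ins, of which no more than 30% came from mitochondrially encoded genes. Kept wells numbered 298 to 311 per TAT-CRE mouse and 274 to 296 per PBS mouse, with a median of 993 to 1953 UMIs per cell in TAT-CRE and 1410 to 2660 in PBS mice. TAT-CRE 208 stood apart: ribosomal RNA genes took 28.3% of its UMIs, against 43.9% to 48.0% in the other 4 mice, and its chi-square per degree of freedom against other libraries was 11.4 to 13.4, against 4.42 to 6.50 in pairs without it. With the ribosomal RNA genes left out the range was 4.87 to 5.90 for comparisons that include TAT-CRE 208, against 4.31 to 5.85 for those among the other 4 mice. PBS 218 differed in other ways: 102 of its wells were removed for few UMIs, against 15 to 48 in the other mice, and 4 by the mitochondrial limit, against 29 to 60. With the ribosomal RNA genes left out, its chi-square values were 5.48 to 5.90, against 4.31 to 5.16 in pairs of the other mice. No well identifier was shared between libraries. Of the kept cells, 91.6% had a UMI of at least 1 of 8 T cell markers, which are receptor and CD3 complex genes and the transcription factor gene Bcl11b. The most frequent of them was Trbc2, a receptor chain gene, in 55.3% of cells. Neutrophil, astrocyte and neuron markers and the defining markers of microglia (P2ry12, Tmem119) were at 0. Summed levels, in counts per 1000000 UMIs (CPM), were at most 3.60 for monocyte or macrophage, 8.28 for choroid plexus and 13.8 for dendritic cell markers in any mouse. They were 3.40 to 74.5 in TAT-CRE and 27.4 to 52.3 in PBS mice for microglia, 18.7 to 147 in TAT-CRE and 23.4 to 34.6 in PBS mice for endothelial, and 91.0 to 111 in TAT-CRE and 88.3 to 133 in PBS mice for oligodendrocyte markers.

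The 9 genes lie on 8 chromosomes of the mouse build mm10, and all are protein coding in the GENCODE M21 annotation. Lck spans chr4:129548344-129573641 on the minus strand, Fyn chr10:39368855-39565381 on the plus strand and Zap70 chr1:36761798-36782818 on the plus strand. Lat spans chr7:126363824-126369570, Trat1 chr16:48730774-48772021 and Rasgrp1 chr2:117279993-117343001, all on the minus strand. Cd2 spans chr3:101275899-101287939, Cd5 chr19:10717116-10739002 and Ptprc chr1:138062861-138175708, again on the minus strand. Of the genes annotated inside them, Mir8119 in Lck had 26 UMIs and A130071D04Rik in Ptprc had 13, and each of the others found in the files had 0. Mir8119 lies on the same strand as Lck and A130071D04Rik on the same strand as Ptprc, so counting by strand could not separate them. How transcripts from the shared stretches were assigned is not given. The 26 and 13 UMIs therefore mark how uncertain the counts of Lck and Ptprc are.

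The start regions of Lck are shown because Lck has 2 annotated promoters far apart, a distal and a proximal one. Their transcripts share the same coding exons, and a UMI does not tell from which of them a transcript began. The most upstream of the annotated Zap70 starts is shown beside them. Each sequence is the RefSeq window (GRCm38.p6, equivalent to mm10) of 250 bases before to 50 bases after an annotated start, 5′ to 3′ on the gene's strand. The windows are chr4:129573592-129573891 and chr4:129558323-129558622 for Lck, minus strand, and chr1:36761548-36761847 for the most upstream start of Zap70, plus strand. Capitals mark AGGAAG or its reverse complement CTTCCT, a core that ETS family factors such as Ets1 can bind.
Lck distal window: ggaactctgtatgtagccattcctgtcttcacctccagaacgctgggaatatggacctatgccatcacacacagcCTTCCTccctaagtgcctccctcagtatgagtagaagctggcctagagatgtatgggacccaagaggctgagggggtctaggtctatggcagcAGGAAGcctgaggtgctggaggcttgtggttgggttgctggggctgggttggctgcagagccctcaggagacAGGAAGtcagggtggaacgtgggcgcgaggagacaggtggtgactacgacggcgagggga
Lck proximal window: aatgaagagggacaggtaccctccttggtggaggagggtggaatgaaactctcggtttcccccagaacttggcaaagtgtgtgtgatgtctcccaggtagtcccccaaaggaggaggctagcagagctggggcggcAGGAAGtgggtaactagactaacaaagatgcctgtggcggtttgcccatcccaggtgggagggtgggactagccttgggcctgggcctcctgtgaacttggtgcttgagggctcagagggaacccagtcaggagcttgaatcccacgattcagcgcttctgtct
Zap70 window: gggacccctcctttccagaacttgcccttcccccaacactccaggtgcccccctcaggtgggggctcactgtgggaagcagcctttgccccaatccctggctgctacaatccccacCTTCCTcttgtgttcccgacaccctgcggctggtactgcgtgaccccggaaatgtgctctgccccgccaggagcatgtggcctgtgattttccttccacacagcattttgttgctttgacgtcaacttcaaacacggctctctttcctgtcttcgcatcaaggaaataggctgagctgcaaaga
These letters occur 3 times in the distal Lck window, 1 time in the proximal one and 1 time in the Zap70 window shown, with no match overlapping another. The windows of the further downstream Zap70 starts, not shown, had 2 and 0 matches. RefSeq windows were matched for 8 of the 9 genes (none for Cd2), 12 windows in all. At least 1 match was present in 8 of the 12 (66.7%), against 35.4% of 32851 mouse windows of the same length searched on both strands. Windows of the same gene are not independent, and those of Ptprc overlap each other. By gene the count was 5 of 8 (62.5%), and the mouse background was counted by window only. A match of these letters is a description and not a binding site.

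Detection of the 9 genes was sparse and depended on depth. Lck had a UMI in 430 of 1482 cells (29.0%), with 3.44 UMIs per positive cell and 23 in the cell that had most. Fyn was found in 224 cells (15.1%) and Zap70 in 126 (8.50%). Among the adaptors, Lat was found in 355 cells (24.0%) and Trat1 in 35 (2.36%). Trat1 was carried by very few cells: 10 of them held 55.4% of its 130 UMIs. Rasgrp1 was found in 110 cells (7.42%), Cd2 in 279 (18.8%), Cd5 in 97 (6.55%) and Ptprc in 532 (35.9%), with 2.02 UMIs per positive cell for Cd5 and 4.27 for Ptprc. In 20 empty wells, whose median was 40 UMIs against 1662.5 in kept cells, 4 wells held 7 UMIs of the genes: 3 of Ptprc, 2 of Fyn, 1 of Lck and 1 of Rasgrp1. This is the only measure of stray transcripts that the plates give, and it rests on 1095 UMIs.

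Of the 1482 cells, 336 had no UMI of any of the 9 genes, 504 had 1 gene, 374 had 2, 176 had 3, 58 had 4, 28 had 5 and 6 had 6. No cell had more. The share of cells with none was 19.3%, 31.4% and 27.5% in TAT-CRE 207, 208 and 215, against 20.6% and 13.9% in PBS 216 and 218. It was highest in TAT-CRE 208, the shallowest library, and lowest in PBS 218, the deepest, and the groups overlapped.

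**Figure D1:**
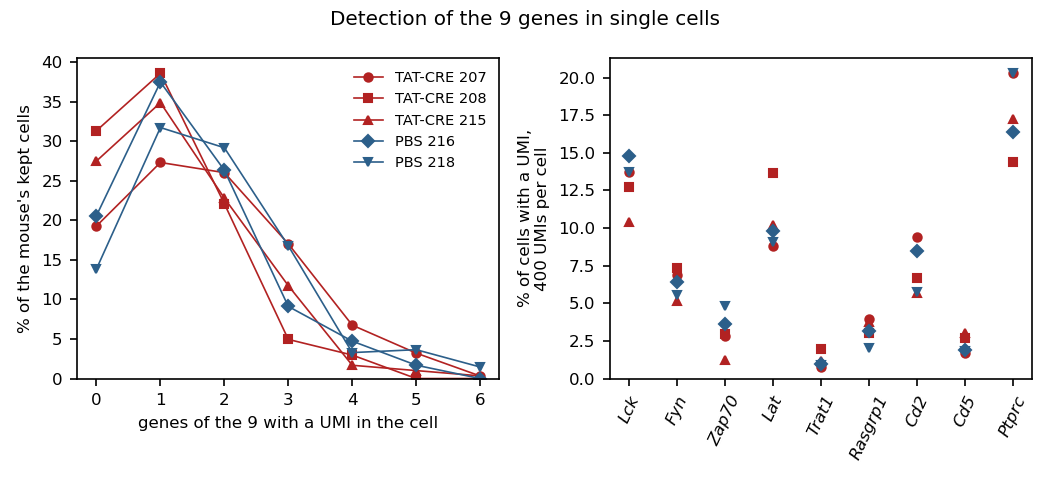
Left, share of each mouse's kept cells (%) by how many of the 9 genes had a UMI in the cell; right, expected share of cells with a UMI of each gene (%) after every cell was thinned to 400 UMIs, with 1 point per mouse (TAT-CRE red, PBS blue). The share of cells with no gene is 13.9% to 31.4%, and after thinning each gene stays at or under 20.3% in every mouse.

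To compare shares across depths, each kept cell was thinned to 400 UMIs, which every kept cell had. The expected share of Zap70-positive cells was then 2.84%, 2.94% and 1.20% in TAT-CRE 207, 208 and 215, against 3.64% and 4.83% in PBS 216 and 218. The groups did not overlap at this depth for 2 of the 9 genes (Zap70 and Lck, both lower), against 18.4% of genes, 8.61% lower. Thinned to 800 UMIs, the share for Zap70 was 5.38%, 4.34% and 2.36% in the TAT-CRE mice, against 5.15% and 7.62% in the PBS mice, and the groups overlapped. At that depth they did not overlap for 1 of the 9 genes (Cd5, higher), against 18.4% of genes, 9.7% higher. Before thinning it was 10.3%, 5.28% and 3.69% (exact binomial 95% intervals 7.15 to 14.2, 3.05 to 8.43 and 1.86 to 6.51) in the TAT-CRE mice, against 9.12% and 14.6% (6.10 to 13.0 and 10.6 to 19.3) in the PBS mice. These intervals cover counting error only. For Lck the thinned share was 13.7%, 12.7% and 10.4% in the TAT-CRE mice, against 14.8% and 13.7% in the PBS mice, where TAT-CRE 207 (13.72%) and PBS 218 (13.75%) were nearly equal. At 400 UMIs the shares of the other 7 genes overlapped between the groups.

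Levels were taken as CPM of each mouse's summed kept cells. The test of TAT-CRE against PBS was edgeR's quasi-likelihood test on those sums, adjusted (Benjamini-Hochberg) over all 6341 genes tested, and all 9 genes passed the filter on low counts. At an adjusted p under 0.05 it called 0 of the 9 genes, against 0 of 6341 (0.0%). At an unadjusted p under 0.05 the count was 1 of the 9, against 240 of 6341 (3.78%), and DESeq2 called 0 of the 9. The median log2 fold change of the 9 was 0.12, against 0.00 over all genes tested.

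The kinase Lck had 455, 610 and 347 CPM in TAT-CRE 207, 208 and 215, against 551 and 516 CPM in PBS 216 and 218. TAT-CRE 208 lay above both PBS mice and the other 2 TAT-CRE mice below them, so the groups overlapped. Its log2 fold change was -0.30 ± 0.21 (SE; edgeR adjusted p = 0.999). As CPM outside the ribosomal RNA genes, Lck stood at 840, 851 and 667 in the TAT-CRE mice, against 1017 and 920 in the PBS mice, and on that scale the groups did not overlap. The position of TAT-CRE 208 therefore depended on the ribosomal RNA share of its UMIs, whereas the fitted fold change was -0.30 with these genes left out as well.

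Fyn had 218, 273 and 146 CPM in the TAT-CRE mice, against 211 and 195 CPM in the PBS mice. The PBS values lay inside the TAT-CRE range, and the log2 fold change was -0.05 ± 0.27 (SE; edgeR adjusted p = 0.999). As both kinases are counted in the same cells, their ratio does not depend on the total: there were 2.09, 2.23 and 2.37 Lck UMIs per Fyn UMI in TAT-CRE 207, 208 and 215, against 2.62 and 2.64 in PBS 216 and 218. The ratio was lower in every TAT-CRE mouse. By CPM 17.6% of single genes did not overlap between the groups in either direction, and no such share was computed for ratios. In Cd8 cells the groups overlapped on the ratio: TAT-CRE 215 had 100 Lck and 40 Fyn UMIs, and PBS 218 had 202 and 89. The ratio was chosen with the values of both genes in view and is given without a test.

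Zap70, the kinase that docks on the phosphorylated receptor chains, had 91.0, 110 and 37.4 CPM in TAT-CRE 207, 208 and 215, from 63, 40 and 22 UMIs, against 144 and 160 CPM in PBS 216 and 218, from 80 and 134 UMIs. All 3 TAT-CRE mice were under both PBS mice. It averaged 79.6 ± 37.8 CPM in TAT-CRE mice (SD, n = 3) and 152 ± 11.0 CPM in PBS mice (SD, n = 2). The log2 fold change of -1.06 ± 0.37 (SE) had an unadjusted p of 0.0130 and an adjusted p of 0.999 in edgeR's test, so it did not pass. Across the 12 alternatives run it was -1.29 to -0.77, with adjusted p from 0.787 to 1.00, and the value nearest 0 came without TAT-CRE 215. Without PBS 218 it was -1.02. NK and gamma delta T cells use Zap70 too, and their markers were measured beside it. Each marker of both lists had UMIs. The summed level of 5 NK cell markers was 35.7 to 93.9 CPM in TAT-CRE and 83.4 to 137 CPM in PBS mice, and that of 4 gamma delta T cell markers 60.7 to 133 CPM in TAT-CRE and 126 to 216 CPM in PBS mice, so both lists ran lower in TAT-CRE mice with overlapping ranges. Their part in the Zap70 level was not tested.

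The adaptor Lat had 246, 557 and 294 CPM in TAT-CRE 207, 208 and 215, against 306 and 301 CPM in PBS 216 and 218. TAT-CRE 208 was far above the rest, the other 2 TAT-CRE mice were just below the PBS mice, and the groups overlapped. Its log2 fold change was 0.12 ± 0.26 (SE; edgeR adjusted p = 0.999), and -0.10 without TAT-CRE 208. Trat1 had 30.3, 105 and 35.7 CPM in the TAT-CRE mice, against 28.8 and 40.5 CPM in the PBS mice. Its value in TAT-CRE 208 came from 38 UMIs in 9 cells, and its log2 fold change of 0.50 ± 0.55 (SE; edgeR adjusted p = 0.999) was -0.00033 without that mouse. For both adaptors the sign of the difference thus rested on TAT-CRE 208.

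Rasgrp1 had 137, 102 and 131 CPM in TAT-CRE 207, 208 and 215, against 93.7 and 90.6 CPM in PBS 216 and 218. Each TAT-CRE mouse lay above both PBS mice, and the log2 fold change was 0.38 ± 0.35 (SE; edgeR adjusted p = 0.999). Outside the ribosomal RNA genes TAT-CRE 208 had 142 CPM and lay below both PBS mice (173 and 161), so on that scale the groups overlapped.

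Among the surface molecules, Cd5 had 60.7, 85.5 and 83.3 CPM in the TAT-CRE mice, against 43.2 and 59.6 CPM in the PBS mice, with TAT-CRE 207 barely above PBS 218. Its log2 fold change was 0.49 ± 0.41 (SE; edgeR adjusted p = 0.999), and it was 0.31 to 0.70 across the alternatives. Cd2 had 286, 221 and 179 CPM in the TAT-CRE mice, against 218 and 174 CPM in the PBS mice, a log2 fold change of 0.16 ± 0.30 (SE; edgeR adjusted p = 0.999). Ptprc had 849, 665 and 670 CPM in the TAT-CRE mice, against 640 and 825 CPM in the PBS mice, a log2 fold change of -0.06 ± 0.24 (SE; edgeR adjusted p = 0.999). The groups overlapped for Cd2 and for Ptprc, the gene of the CD45 protein on which the cells were gated.

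By CPM the groups thus did not overlap for 3 of the 9 genes: Zap70 was lower and Rasgrp1 and Cd5 were higher in every TAT-CRE mouse. Of all 6341 genes, 17.6% did not overlap by the same rule, 7.22% lower and 10.3% higher in TAT-CRE mice. Outside the ribosomal RNA genes the count was again 3 of 9 (Lck and Zap70 lower, Cd5 higher), against 18.7% of genes, 9.38% lower and 9.29% higher. With 3 of 9, the share among the 9 genes rests on too few genes to be set apart from these backgrounds.

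**Figure D2:**
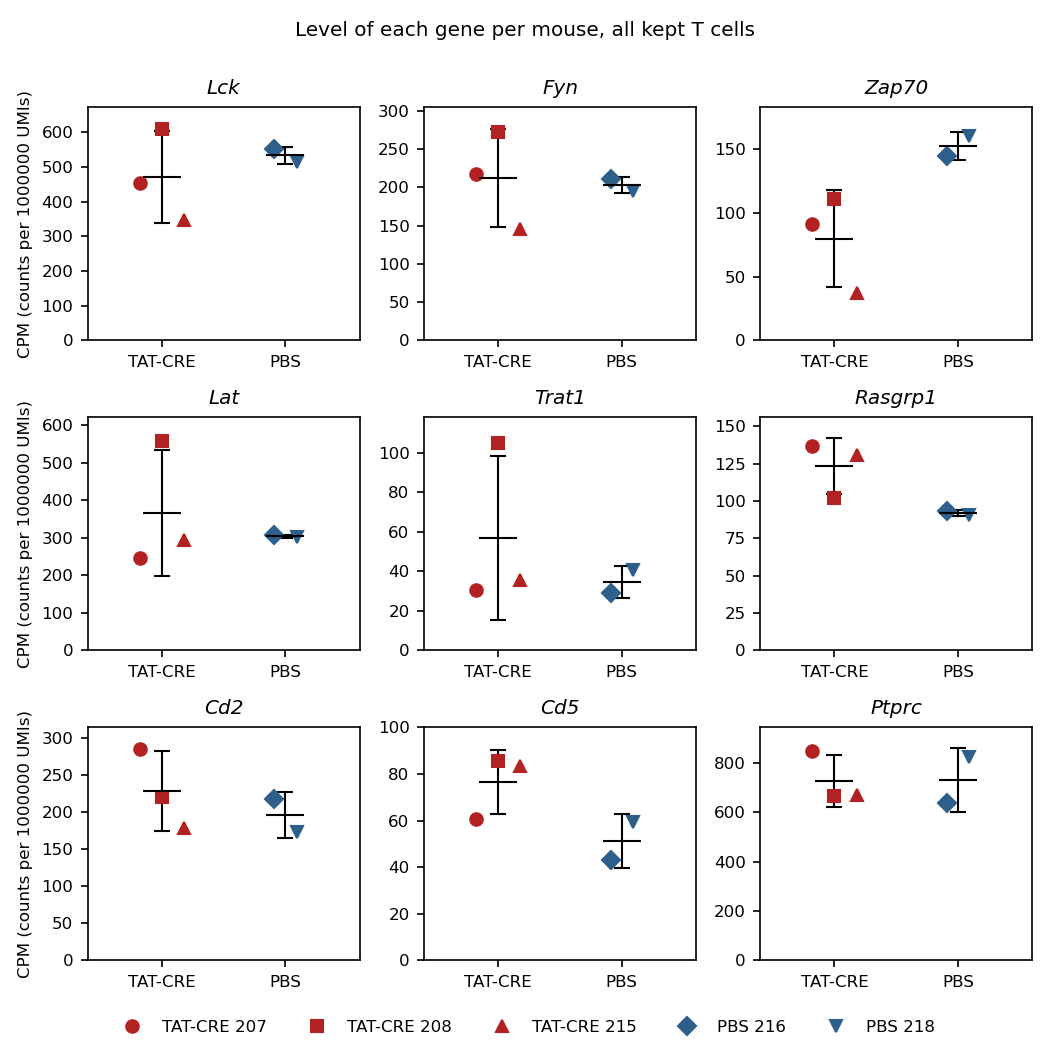
Level of each gene in CPM of the summed kept cells, with 1 point per mouse (TAT-CRE left, PBS right), the bar at the group mean and the whiskers at 1 SD (n = 3 and n = 2). Zap70 lies at 37.4 to 110 in TAT-CRE mice and at 144 and 160 in PBS mice, whereas Lat and Trat1 have 1 high TAT-CRE mouse, 208.

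Cells with a Cd8a or Cd8b1 UMI and no Cd4 UMI, called Cd8 cells here, numbered 630 (42.5%), with 76 to 174 per mouse. The same comparison was made within them, which holds the lineage fixed as far as a UMI shows it. Lck had 425, 427 and 372 CPM in Cd8 cells of TAT-CRE 207, 208 and 215, against 593 and 503 CPM in those of PBS 216 and 218. Here all 3 TAT-CRE mice, 208 included, were under both PBS mice, and the log2 fold change was -0.49 ± 0.26 (SE; edgeR unadjusted p = 0.0811, adjusted p = 1.00). Zap70 had 98.2, 132 and 37.2 CPM in the TAT-CRE mice, against 135 and 147 CPM in the PBS mice. TAT-CRE 208 and PBS 216 were close, at 132 CPM from 13 UMIs and 135 CPM from 40, and the log2 fold change was -0.82 ± 0.49 (SE; edgeR adjusted p = 1.00). It was -0.50 without TAT-CRE 215.

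The other genes in Cd8 cells were closer between the groups relative to their errors. Cd2 had 278, 214 and 216 CPM in the TAT-CRE mice, against 172 and 207 CPM in the PBS mice, a log2 fold change of 0.29 ± 0.35 (SE). It was -0.25 ± 0.33 for Fyn, 0.07 ± 0.29 for Lat, -0.70 ± 1.11 for Trat1, 0.58 ± 0.66 for Rasgrp1, 0.11 ± 0.71 for Cd5 and -0.03 ± 0.37 for Ptprc (SE; edgeR adjusted p = 1.00 for each). None of the 9 passed, against 0 of 4011 genes (0.0%), none had an unadjusted p under 0.05, against 123 genes (3.07%), and DESeq2 called 0 of the 9. The groups did not overlap for 3 of 9 genes (Lck and Zap70 lower, Cd2 higher), against 17.3% of genes, 8.25% lower and 9.05% higher. Outside the ribosomal RNA genes they did not overlap for 2 of 9 (Lck and Zap70, both lower), against 17.8%, of which 9.52% lower. The thinned share of Lck-positive cells was 13.1%, 8.37% and 11.2% in TAT-CRE mice, against 18.2% and 14.4% in PBS mice. By this share the groups did not overlap for 1 of 9 genes (Lck), and they overlapped for Zap70. The share of all genes that did not overlap by this rule was not computed in Cd8 cells.

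**Figure D3:**
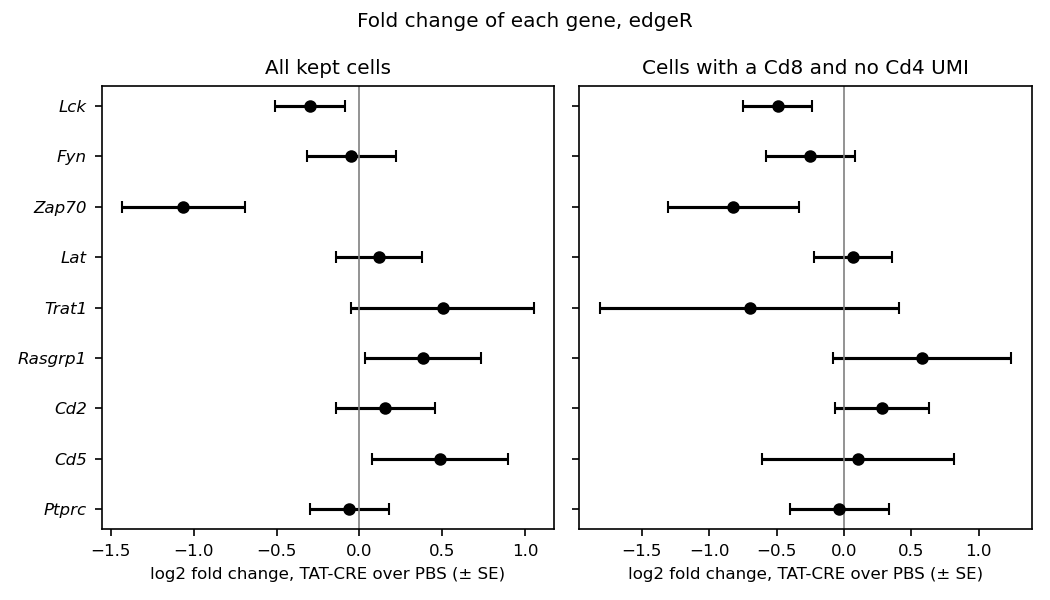
The log2 fold change of each gene, TAT-CRE over PBS (horizontal axis), with its standard error, from edgeR on UMIs summed per mouse, in all kept cells (left) and in Cd8 cells (right). Zap70 lies lowest, at -1.06 in all cells and -0.82 in Cd8 cells, and no gene passed the test in either panel.

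Cxcr6 encodes a chemokine receptor of tissue-resident T cells, and Klf2 a transcription factor of recirculating T cells. Cells with a Cxcr6 and no Klf2 UMI numbered 384 (59 to 101 per mouse), cells with a Klf2 and no Cxcr6 UMI 139 (21 to 40), cells with both 49, and 910 had neither. At this depth a missing UMI does not show that a cell lacks the transcript. Cd8 cells made up 49.5% of the Cxcr6 and 45.3% of the Klf2 cells. Both kinds came from the same mice, so the mouse was a block in the test.

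Fyn showed the widest gap between the classes among the genes tested of the 9. It had 235, 352, 161, 154 and 273 CPM in Cxcr6 cells of TAT-CRE 207, 208 and 215 and PBS 216 and 218, against 167, 65.3, 0, 157 and 132 CPM in Klf2 cells of the same mice. It was higher in Cxcr6 cells of 4 of 5 mice, and PBS 216 was nearly equal. The log2 fold change of 1.24 ± 0.56 (SE) had an unadjusted p of 0.0474 and an adjusted p of 0.541 in edgeR's test, and was 0.89 to 1.62 across 14 alternatives with adjusted p from 0.466 to 0.843. The 0 of TAT-CRE 215 stands for 0 of 54663 UMIs in 26 Klf2 cells. A limit of 3 UMIs would be 54.9 CPM, but it holds only if UMIs are independent. Fyn UMIs were clustered, at 2.75 per positive cell over all kept cells, so that limit is too low. Counted by cells, the exact binomial interval reached 13.2% of these Klf2 cells. The 0 therefore sets no firm upper limit on the level.

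Lck averaged 592 ± 209 CPM in Cxcr6 cells and 474 ± 368 CPM in Klf2 cells (SD, n = 5 mice each), with a log2 fold change of 0.57 ± 0.29 (SE; edgeR adjusted p = 0.618). In Klf2 cells it ran over 73.2 to 1013 CPM between the mice, on 4 to 90 UMIs. Zap70 averaged 127 ± 58.1 CPM in Cxcr6 and 98.6 ± 75.3 CPM in Klf2 cells, and Lat 379 ± 270 CPM in Cxcr6 and 278 ± 145 CPM in Klf2 cells (SD, n = 5). Their log2 fold changes were 0.65 ± 0.57 and 0.40 ± 0.26 (SE; edgeR adjusted p = 0.814 and 0.746). Both were higher in Cxcr6 cells of 3 of 5 mice.

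Rasgrp1 went the other way, with 123, 26.1, 119, 55.5 and 53.8 CPM in Cxcr6 cells against 201, 98.0, 311, 157 and 29.4 CPM in Klf2 cells of TAT-CRE 207, 208 and 215 and PBS 216 and 218. It was lower in Cxcr6 cells of 4 of 5 mice, with PBS 218 as the exception. Its log2 fold change was -0.83 ± 0.56 (SE; edgeR adjusted p = 0.756). Trat1 averaged 24.1 ± 15.0 CPM in Cxcr6 and 85.8 ± 80.4 CPM in Klf2 cells, and Cd5 60.8 ± 54.1 CPM in Cxcr6 and 75.9 ± 8.78 CPM in Klf2 cells (SD, n = 5). Both were lower in Cxcr6 cells of 4 of 5 mice, but neither had enough UMIs for the test. For Cd2 and Ptprc the log2 fold changes were 0.23 ± 0.39 and 0.23 ± 0.20 (SE; edgeR adjusted p = 0.902 and 0.806).

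Of the 7 genes tested, 0 passed, against 4 of 1138 genes (0.351%), namely AW112010, Ccl5, Id2 and Nkg7, all higher in Cxcr6 cells. At an unadjusted p under 0.05 there was 1 of the 7 (Fyn), against 101 of 1138 (8.88%), and DESeq2 called 0 of the 7. No gene of the 9 had the same direction in all 5 mice, against 10.9% of genes tested. The NK cell markers averaged 76.9 CPM in Cxcr6 and 24.9 CPM in Klf2 cells and the gamma delta T cell markers 185 CPM in Cxcr6 and 58.3 CPM in Klf2 cells; their part in these values was not tested. In the 910 cells with neither transcript Lck averaged 440 ± 62.8 CPM, Fyn 219 ± 40.9 and Rasgrp1 127 ± 16.2 (SD, n = 5). Among the 49 cells with both, Trat1 reached 2210 CPM in TAT-CRE 208, from 9 UMIs among 4 cells.

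Whether the class contrast differed between the groups was tested as an interaction, with the mouse as a block. All 9 genes were tested and 0 passed, against 0 of 2516 genes (0.0%); at an unadjusted p under 0.05 there were 0 of the 9, against 63 genes (2.5%), and DESeq2 called 0 of the 9. The difference was 1.37 ± 1.03 for Fyn and 0.48 ± 0.41 for Ptprc on the log2 scale (SE; edgeR adjusted p = 1.00), and the errors of Trat1 and Cd5 were 2.72 and 1.99. Effects of the treatment on this contrast as large as these errors were not detectable at this depth.

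Cd4 cells (a Cd4 and no Cd8a or Cd8b1 UMI) numbered 85, with 8 to 23 per mouse, the fewest of the classes that were tested. Lat, the adaptor downstream of Zap70, had 243, 488, 275, 307 and 267 CPM in Cd8 cells of TAT-CRE 207, 208 and 215 and PBS 216 and 218, against 114, 887, 490, 953 and 702 CPM in Cd4 cells of the same mice. It was lower in Cd8 cells of 4 of 5 mice, with TAT-CRE 207 as the exception. Its log2 fold change of -0.80 ± 0.35 (SE) had an unadjusted p of 0.0370 and an adjusted p of 0.672 in edgeR's test. With no filter on low counts it was 0.0078, under a scaling that moved the median of all genes by 0.81.

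Zap70 had 98.2, 132, 37.2, 135 and 147 CPM in Cd8 cells, against 130, 296, 132, 159 and 479 CPM in Cd4 cells of the same mice. It was lower in Cd8 cells of all 5 mice, and the log2 fold change was -1.07 ± 0.53 (SE; edgeR unadjusted p = 0.0613, adjusted p = 0.843). The Cd4 values rest on 8, 7, 7, 4 and 15 UMIs in 4, 1, 3, 1 and 3 cells. Rasgrp1 had 115, 30.5, 115, 53.9 and 69.7 CPM in Cd8 cells, against 130, 84.5, 170, 119 and 160 CPM in Cd4 cells, again lower in Cd8 cells of all 5 mice. Rasgrp1 had too few UMIs for the test, and its Cd4 values rest on 8, 2, 9, 3 and 5 UMIs in 4, 1, 3, 1 and 2 cells. Among the 6 genes tested the same direction in all 5 mice was seen for 1 (Zap70, lower in Cd8 cells), against 8.52% of genes tested in either direction and 3.02% lower.

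In the opposite direction, Fyn averaged 248 ± 79.0 CPM in Cd8 cells and 138 ± 59.7 CPM in Cd4 cells (SD, n = 5) and was higher in Cd8 cells of 4 of 5 mice. Its log2 fold change was 0.79 ± 0.55, that of Lck 0.46 ± 0.37, of Cd2 -0.65 ± 0.46 and of Ptprc 0.19 ± 0.26 (SE; edgeR adjusted p = 0.924 to 0.986). Cd5, which was not tested, averaged 44.5 ± 5.33 CPM in Cd8 and 118 ± 69.5 CPM in Cd4 cells, and Trat1, not tested either, 30.7 ± 18.2 CPM in Cd8 and 59.5 ± 58.2 CPM in Cd4 cells (SD, n = 5). Of 6 genes tested 0 passed, against 2 of 728 (0.275%), which were Ccl5 and Ly6c2. At an unadjusted p under 0.05 there was 1 of the 6 (Lat), against 47 of 728 (6.46%), and DESeq2 called 0 of the 6. The NK cell markers averaged 121 CPM in Cd8 and 6.38 CPM in Cd4 cells, and their part in these values was not tested.

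**Figure D4:**
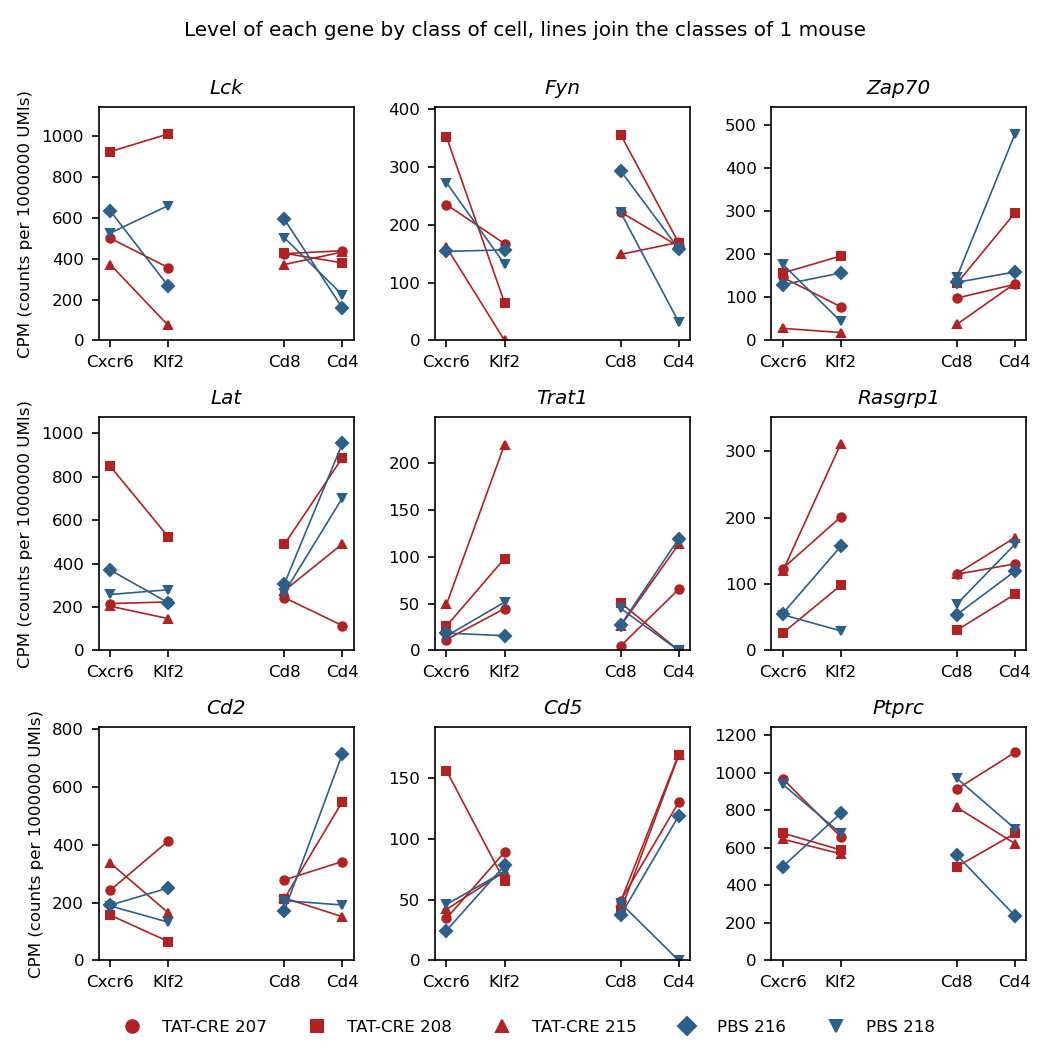
Level of each gene in CPM in Cxcr6 and Klf2 cells and in Cd8 and Cd4 cells, with lines that join the classes of 1 mouse (TAT-CRE red, PBS blue). Zap70 and Rasgrp1 are lower in Cd8 than in Cd4 cells of all 5 mice, and no gene has the same direction in all 5 mice between Cxcr6 and Klf2 cells.

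Cells with no Cd4, Cd8a or Cd8b1 UMI numbered 742 (50.1%), with a median of 1315.5 UMIs, against 1985.5 in Cd8 cells. In them Lck averaged 498 ± 190 CPM in TAT-CRE and 553 ± 4.29 CPM in PBS mice, and Zap70 54.5 ± 33.3 CPM in TAT-CRE (SD, n = 3) and 158 ± 1.49 CPM in PBS mice (SD, n = 2). Per mouse, Zap70 had 58.8, 85.4 and 19.2 CPM in TAT-CRE 207, 208 and 215, against 159 and 157 CPM in PBS 216 and 218, and all 3 TAT-CRE mice were under both PBS mice. Rasgrp1 had 199.95, 137 and 142 CPM in the TAT-CRE mice, against 128 and 114 CPM in the PBS mice, and all 3 TAT-CRE mice were above both PBS mice. By CPM the groups did not overlap for these 2 of the 9 genes, against 17.9% of the 6341 genes tested in all kept cells, 7.7% lower and 10.2% higher. Outside the ribosomal RNA genes Rasgrp1 had 191 CPM in TAT-CRE 208, below PBS 216 and 218 (233 and 205), so the groups overlapped for it. On that scale Lck, Zap70 and Ptprc were lower in every TAT-CRE mouse and the other genes overlapped. The share of all genes by that rule was not computed in these cells. No test was run in these cells. In Cd4 cells Lck went the other way than in Cd8 cells: it had 440, 380 and 434 CPM in TAT-CRE 207, 208 and 215, from 27, 9 and 23 UMIs, against 159 and 223 CPM in PBS 216 and 218, from 4 and 7 UMIs, so all 3 TAT-CRE mice were above both PBS mice. Among the 6 genes that could be tested between Cd8 and Cd4 cells, the treatment groups did not overlap in Cd4 cells for 2 (Lck and Fyn, both higher in TAT-CRE mice), against 21.7% of genes, 9.2% higher. Fyn had 163, 169 and 170 CPM there in TAT-CRE 207, 208 and 215, from 10, 4 and 9 UMIs. In PBS 216 and 218 it had 159 and 31.9 CPM, from 4 and 1 UMIs. Outside the ribosomal RNA genes Fyn had 236 CPM in TAT-CRE 208 and 299 CPM in PBS 216, so on that scale the groups overlapped. No test between TAT-CRE and PBS mice was run in Cd4 cells. A further 25 cells had both a Cd4 and a Cd8a or Cd8b1 UMI and entered neither class.

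The wider pathway was taken as 57 genes: kinases and adaptors near the receptor, downstream branches, restraining genes and surface partners. Between TAT-CRE and PBS mice 54 of the 57 were tested and 0 passed (edgeR), 32 with a higher and 22 with a lower estimate, with a median log2 fold change of 0.09 against 0.00 over all genes. The smallest unadjusted p among higher estimates were those of Ptpn2 and Ubash3b, 2 phosphatase genes that restrain signalling. Ptpn2 stood at 78.0 ± 19.0 CPM in TAT-CRE (SD, n = 3) and 30.2 ± 0.594 CPM in PBS mice (SD, n = 2), and Ubash3b at 40.7 ± 11.9 CPM in TAT-CRE and 11.1 ± 7.25 CPM in PBS mice. On the lower side were Cd48, the partner of Cd2, at 106 ± 17.8 CPM in TAT-CRE and 174 ± 29.0 CPM in PBS mice, and Grap2, an adaptor that links Lat to Lcp2, at 46.8 ± 21.8 CPM in TAT-CRE and 61.9 ± 18.7 CPM in PBS mice (edgeR adjusted p = 0.999 for each of the 4).

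In Cd8 cells 48 genes of the list were tested, 30 higher and 18 lower in TAT-CRE mice, and 0 passed. Sos1, another exchange factor of Ras, stood at 60.0 ± 45.7 CPM in TAT-CRE and 6.30 ± 5.39 CPM in PBS mice, and Itpkb, a kinase of inositol phosphates, at 129 ± 100.3 CPM in TAT-CRE and 50.1 ± 13.7 CPM in PBS mice. Cd48 stood at 124 ± 8.75 CPM in TAT-CRE and 189 ± 24.6 CPM in PBS mice, and Grap2 at 37.4 ± 13.7 CPM in TAT-CRE and 67.1 ± 42.5 CPM in PBS mice (SD, n = 3 and n = 2; edgeR adjusted p = 1.00 for each of the 4).

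Between Cxcr6 and Klf2 cells 25 of the 57 genes were tested, 19 with a higher and 6 with a lower estimate in Cxcr6 cells, a median log2 fold change of 0.38 against 0.10 over all genes, and 0 passed. Dgka, a kinase that consumes the diacylglycerol needed by Rasgrp1, came nearest: it averaged 94.4 ± 50.5 CPM in Cxcr6 and 392 ± 167 CPM in Klf2 cells (SD, n = 5), a log2 fold change of -1.97 ± 0.39 (SE; edgeR adjusted p = 0.0721). Ptpn22, a phosphatase that restrains Lck, averaged 399.5 ± 99.3 CPM in Cxcr6 and 143 ± 108 CPM in Klf2 cells (edgeR adjusted p = 0.158). Cd8a averaged 631 ± 154 CPM in Cxcr6 and 406 ± 152 CPM in Klf2 cells, and Cd3d 332 ± 41.9 CPM in Cxcr6 and 437 ± 189 CPM in Klf2 cells (edgeR adjusted p = 0.168 and 0.827).

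Between Cd8 and Cd4 cells 17 of the list were tested, 8 higher and 9 lower in Cd8 cells, and 0 passed. Cd3e averaged 289 ± 55.7 CPM in Cd8 and 178 ± 101 CPM in Cd4 cells, and Cd3d 438.5 ± 46.4 CPM in Cd8 and 316 ± 107 CPM in Cd4 cells. Dgka averaged 122 ± 12.3 CPM in Cd8 and 307 ± 208 CPM in Cd4 cells, and Ptprcap, which encodes a protein associated with CD45, 212 ± 33.2 CPM in Cd8 and 356 ± 173 CPM in Cd4 cells (SD, n = 5; edgeR adjusted p = 0.843 to 0.920). In the interaction 39 of the list were tested, 21 higher and 18 lower, and 0 passed; Rasal3 and Sh2d2a had the smallest unadjusted p among higher and Plcg1 and Cd3g among lower estimates (edgeR adjusted p = 1.00 for each).

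Among 956 genes with at least 100 CPM, those whose log2 level over the 20 sums of mouse by Cxcr6 and Klf2 class ran most like that of the 9 genes added together were Selplg (Pearson r = 0.84), Fam189b (r = 0.79) and Rpl26 (r = 0.78). The 20 sums share mice, libraries and depth, so these values are a description.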

How the data were processed

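The authors deposited UMI counts that were not normalized, with genes as rows and wells of plate-based single-cell libraries as columns. The deposited metadata also hold counts of cells per well. The build mm10 and bcl2fastq 2.15.0.4 are named in the submitters' processing notes; an aligner, an annotation and the use of strand were not given in the sources used here. The 9 genes and the lists of 57 pathway genes and cell type markers were chosen with earlier results of these data known. Wells with 1 cell were kept if they had 400 or more UMIs without spike-ins, no more than 30% of them mitochondrial, and no doublet caller was run because 1 cell was sorted per well. Raw counts were summed per mouse, or per mouse and class, and tested with edgeR 4.0.16 (quasi-likelihood, TMM, filterByExpr, R 4.3.3), with the mouse as a block between classes of the same mice. P-values were adjusted by Benjamini-Hochberg over all genes tested (threshold 0.05), and genes that define a class were left out of its test. The SE of a log2 fold change is its size divided by the square root of edgeR's F. The test was run on simulated data with large changes in the more abundant genes. That run does not show its power for smaller changes in sparse genes. Classes use 1 UMI as the limit: Cxcr6 without Klf2, Klf2 without Cxcr6, Cd8a or Cd8b1 without Cd4, and Cd4 without these. Expected shares after thinning are hypergeometric, and intervals are Clopper-Pearson at 95%. Depth was 362457 to 839188 UMIs per mouse. All 9 genes are named in each comparison; of the pathway list, the 2 higher and 2 lower genes with the smallest unadjusted p are named where none passed. Alternatives were DESeq2 1.42.0, its size factors, no filter, ribosomal RNA genes (Gm42418, Gm26917, mt-Rnr1, mt-Rnr2) left out, other cell limits and each mouse left out. Each library has its own replicate number in the labels and was taken as 1 mouse; no label says that it came from 1 animal, so p-values measure the spread between these 5 libraries, which may be technical. The result of 1 marker list is not reported here.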

Additional observations from a re-analysis of the deposited data

Results flagged for a closer look

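Wells outside the main measurement held transcripts of the 9 genes. The 195 wells removed by the mitochondrial limit held 488 UMIs of them (1941 CPM, against 2300.2 CPM in kept cells), at levels of 318 CPM for Lck, 310 CPM for Lat, 39.8 CPM for Zap70 and 632 CPM for Ptprc. The 223 wells removed by the UMI minimum held 121 UMIs of them (3332 CPM), in 55 wells. For comparison, the 20 empty wells held 7 UMIs of the 9 genes among 1095 UMIs (6393 CPM). The share of the 9 genes among these few stray UMIs was thus not lower than in kept cells. The first set entered the comparisons only as the alternative with no mitochondrial limit, and of the second only wells with 200 or more UMIs entered, as an alternative minimum.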

How the results depend on the processing

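Of the 9 genes, 0 of those tested passed in any comparison, under each alternative run. Apart from leaving out a mouse, 295 fold changes of single genes kept their sign and 5 reversed: Fyn at 0.022 and, in Cd8 cells, Cd5 at -0.28 with no mitochondrial limit (TAT-CRE over PBS), and with no filter on low counts Lat at -0.031 in Cd8 cells (TAT-CRE over PBS) and Lat at 0.0078 and Cd2 at 0.15 (Cd8 over Cd4). The median of all genes moved by 0.81 in the last of these contrasts and by 0.24 between Cxcr6 and Klf2 cells under no filter, by 0.16 between Cd8 and Cd4 cells without TAT-CRE 208, and by -0.10 and 0.11 in the interaction without TAT-CRE 215 and PBS 216.

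Leaving out each mouse in turn kept 172 signs and reversed 24. For TAT-CRE over PBS the ranges were -0.15 to 0.093 for Fyn, -0.10 to 0.29 for Lat, -0.00033 to 0.76 for Trat1, -0.12 to 0.37 for Cd2 and -0.24 to 0.12 for Ptprc, and in Cd8 cells -0.090 to 0.19 for Lat, -0.026 to 0.28 for Cd5 and -0.35 to 0.37 for Ptprc. In the interaction they were -0.47 to 1.16 for Lck, -1.46 to 0.75 for Zap70, -0.27 to 0.63 for Lat, -1.93 to 0.38 for Rasgrp1 and -0.13 to 1.23 for Cd2. With 1 PBS mouse left, that mouse was taken to vary like the TAT-CRE mice.

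Counts of genes called over all genes were, with DESeq2, 1 for TAT-CRE against PBS, 14 for Cxcr6 against Klf2 cells and 4 for Cd8 against Cd4 cells, and with no filter 8, 29 and 57 for the same comparisons and 1 for TAT-CRE against PBS in Cd8 cells, against 0, 4, 2 and 0 as reported. Between Cxcr6 and Klf2 cells 2 were called with a minimum of 800 UMIs, 1 in Cd8 cells alone and 1 to 3 when a mouse was left out (1 without TAT-CRE 207, TAT-CRE 215 or PBS 218); between Cd8 and Cd4 cells 1 to 3 (1 without TAT-CRE 215). The cause of these differences was not tested.

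Shares of cells with a UMI followed depth: over mice they averaged unthinned, thinned to 800 and thinned to 400 UMIs 29.1%, 20.1% and 13.1% for Lck, 15.1%, 10.5% and 6.28% for Fyn, 8.60%, 4.97% and 3.09% for Zap70, 24.0%, 15.8% and 10.3% for Lat, 2.36%, 1.65% and 1.16% for Trat1, 7.38%, 4.94% and 3.19% for Rasgrp1, 18.8%, 11.8% and 7.19% for Cd2, 6.56%, 3.72% and 2.23% for Cd5 and 36.1%, 26.2% and 17.7% for Ptprc. No paired analysis was possible because TAT-CRE and PBS mice share no replicate number. Between classes, where the mouse was a block, the fit with no replicate block called 3 genes (Cxcr6 against Klf2) and 2 genes (Cd8 against Cd4), none of them among the 9. Low counts limit Trat1, Cd5, Rasgrp1 and Zap70, and all Cd4 values.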
